A study of Mus musculus with 12 samples.

Results

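Most exons of a coding transcript are short, and an m6A peak that reaches 4 or more of them has to cross at least 3 exon junctions. Such peaks of young and aged mouse hearts are described here, and they are called spanning peaks. A peak was counted when its record held 4 or more exon blocks and when the middle of its exon sequence lay in the coding sequence (CDS), more than 100 nt from both the start and the stop codon, on the transcript of its gene with the longest CDS. The 6 peak lists held 2191 spanning peaks in 867 genes, out of 41694 peaks and out of 23749 coding peaks placed by the same rule, so that 9.23% of the coding peaks were spanning. Another 300 peaks with 4 or more blocks had their middle elsewhere, 170 of them at a base that was not part of the chosen transcript.

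The hearts came from male C57BL/6 mice of 6 to 7 weeks (young) and of 26 to 27 months (aged), and no other treatment or genotype distinguished the groups. Each age had 3 m6A immunoprecipitates, each with an input library of the same RNA, 12 libraries in total. MeRIP-seq cuts RNA into fragments of 100 to 200 nt, pulls out those with N6-methyladenosine by an antibody, and sequences them alongside the input, and a peak is a stretch of exon sequence where the enriched library stands above its input. The labels name separate mice, but whether the RNA of 1 or of several hearts entered each library is not settled by the sources, so each pair of libraries is called 1 heart, and p-values measure the spread between these pairs. The lists held 4114 to 6505 peaks in young and 7284 to 9367 in aged hearts, read depth is unknown, and a peak that is missing was not called, which does not show that the site was unmethylated. For the label of the tissue only the presence of peaks could be read. All 7 cardiomyocyte markers and all 7 endothelial markers had a peak, as did 6 of 7 fibroblast, 2 of 4 smooth muscle and 1 of 4 immune markers. The share of all annotated genes with a peak is not given beside them, so these counts do not test the label.

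N6-methyladenosine is written on nuclear RNA by a complex around METTL3 and METTL14, within a short sequence context whose best known form is GGAC. In most tissues it is concentrated in long internal exons and around stop codons, and exon junction complexes, which are left on the RNA beside each splice junction, are known to keep the writer away from nearby bases. Peaks that run across several short exons are therefore placed where little methylation is usually described. The peak caller works on the joined exons of a gene, so a peak can pass over introns of any length without covering them.

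The exon sequences below are examples of what such peaks hold. The first set is the run of 10 exons of Trdn that lay whole inside the peak with the most exon blocks of this gene in every one of the 6 hearts. Trdn encodes triadin, which links calsequestrin to the calcium release channel of the sarcoplasmic reticulum. This gene was chosen because it held the peak with the most exon blocks, so it stands at an extreme of the set. Sequences are from GRCm38, on the transcribed strand, 5′ to 3′, in lower case, with GGAC in capitals wherever it occurs on the spliced sequence, also across a junction. Trdn exons are numbered along the chosen transcript, which has 38 exons, and the blocks of the other genes along the peak.

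Trdn exon 12, chr10:33258087-33258140, plus strand: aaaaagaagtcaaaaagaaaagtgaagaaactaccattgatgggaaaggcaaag
Trdn exon 13, chr10:33305037-33305090, plus strand: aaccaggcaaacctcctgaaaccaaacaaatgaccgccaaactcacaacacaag
Trdn exon 14, chr10:33321305-33321334, plus strand: ctgcagctagaaaggatgagaagaaagaag
Trdn exon 15, chr10:33332436-33332465, plus strand: aatcaaagaaaatgagaaaacctacagaag
Trdn exon 16, chr10:33333232-33333249, plus strand: aacaacccaagggaaaaa
Trdn exon 17, chr10:33334982-33335014, plus strand: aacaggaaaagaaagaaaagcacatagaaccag
Trdn exon 18, chr10:33335140-33335166, plus strand: caaagacaccaaaaaaggaacatccag
Trdn exon 19, chr10:33337513-33337539, plus strand: gtccaagtgaaaaactcaaaaaagcaa
Trdn exon 20, chr10:33343076-33343123, plus strand: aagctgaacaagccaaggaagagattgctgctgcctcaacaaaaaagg
Trdn exon 21, chr10:33363978-33364022, plus strand: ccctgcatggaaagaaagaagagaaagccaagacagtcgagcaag

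All 10 exons were between 18 and 54 nt long, each had a length divisible by 3, and together they measured 366 nt. Adenine made up 51.4% of their bases, against 32.2% over all spanning peaks, whose inner exons had a median of 98 nt. GGAC did not occur in them, joined or single, while the wider motif DRACH (named by its usual letters, searched on the transcribed strand, overlapping matches counted) occurred 13 times inside single exons.

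The next sets are the exon blocks of the 3 best ranked regions that were called in every aged heart but never in a young one, each from the spanning peak of one aged heart. They are Capza2 (an actin capping protein of the Z-disc), Nipsnap2 (a mitochondrial protein) and Cep85l (a centrosomal protein). The first and last block of a peak can end inside an exon, and the blocks between them were whole exons.

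Capza2 block 1, chr6:17637127-17637160, plus strand: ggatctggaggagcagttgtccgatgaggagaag
Capza2 block 2, chr6:17648520-17648583, plus strand: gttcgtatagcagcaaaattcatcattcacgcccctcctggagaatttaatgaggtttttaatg
Capza2 block 3, chr6:17650003-17650054, plus strand: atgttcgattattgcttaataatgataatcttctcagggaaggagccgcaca
Capza2 block 4, chr6:17654106-17654169, plus strand: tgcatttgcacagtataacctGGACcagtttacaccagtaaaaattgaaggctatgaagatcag
Capza2 block 5, chr6:17656238-17656323, plus strand: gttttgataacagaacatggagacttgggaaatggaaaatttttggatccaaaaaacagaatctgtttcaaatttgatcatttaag

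Nipsnap2 block 1, chr5:129725153-129725221, plus strand: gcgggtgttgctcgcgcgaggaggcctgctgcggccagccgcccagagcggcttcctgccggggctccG
Nipsnap2 block 2, chr5:129739472-129739611, plus strand: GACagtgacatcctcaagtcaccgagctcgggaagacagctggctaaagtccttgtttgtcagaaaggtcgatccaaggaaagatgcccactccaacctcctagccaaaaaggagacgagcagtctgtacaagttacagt
Nipsnap2 block 3, chr5:129739718-129739763, plus strand: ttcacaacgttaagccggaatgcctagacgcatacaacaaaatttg
Nipsnap2 block 4, chr5:129744705-129744719, plus strand: tcaagaagtgttacc

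Cep85l block 1, chr10:53296214-53296304, minus strand: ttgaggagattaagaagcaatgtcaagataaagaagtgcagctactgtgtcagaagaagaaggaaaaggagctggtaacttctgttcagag
Cep85l block 2, chr10:53292258-53292375, minus strand: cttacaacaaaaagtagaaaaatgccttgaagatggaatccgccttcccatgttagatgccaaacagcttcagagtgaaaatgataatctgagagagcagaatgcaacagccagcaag
Cep85l block 3, chr10:53291764-53291814, minus strand: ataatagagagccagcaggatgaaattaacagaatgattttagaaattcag
Cep85l block 4, chr10:53283905-53283944, minus strand: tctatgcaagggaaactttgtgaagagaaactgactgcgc

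In these 3 spliced peaks GGAC occurred 2 times, inside the fourth block of Capza2 and across the junction of the first and the second block of Nipsnap2. The blocks of Cep85l had 32.5% to 45.1% adenine, and the first block of Nipsnap2, which lies nearest to the start codon, had 7.25%.

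The number of junctions crossed was mostly the smallest that the rule admits. Peaks of 4 blocks made up 69.1% of the spanning peaks (1514), 481 peaks had 5 blocks, 118 had 6 (5.39%) and 78 had 7 or more. Just outside the threshold lay 4634 coding peaks of 3 blocks. The exon sequence of a spanning peak had a median of 359 nt with quartiles of 270 and 450 nt and a range of 121 to 1827 nt, while its span on the genome had a median of 6094 nt. Single-exon coding peaks had a median of 210 nt, which is a consequence of the rule to some degree, since more blocks need more sequence. All junctions of 1573 peaks (71.8%) were also junctions of the chosen transcript. The remaining peaks had gaps between blocks that were not junctions of the chosen transcript. Whether those gaps were junctions of another transcript was not tested, and 17 peaks held 2 blocks less than 50 nt apart.

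Exons inside spanning peaks were short. Spanning peaks held 5460 blocks between their first and last one, 99.9% of which were annotated exons from end to end, and these came from 2856 different exons. Their lengths had a median of 98 nt with quartiles of 71 and 132 nt. The other 13167 internal coding exons of the same transcripts had a median of 125 nt with quartiles of 90 and 166 nt. Exons of 51 nt or less made up 11.1% of the exons inside spanning peaks and 4.56% of the others, and exons over 200 nt made up 4.66% and 13.4%. A length divisible by 3 was found for 45.2% and 43.9%. Since short exons let a peak collect more blocks, exon length is tied to the rule and was not tested. The median length of the inner blocks was 93, 95 and 97 nt in young and 98, 96 and 96 nt in aged hearts, and the ranges overlapped (two-sided exact permutation test over 3 and 3 hearts, p = 0.4).

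**Figure D1:**
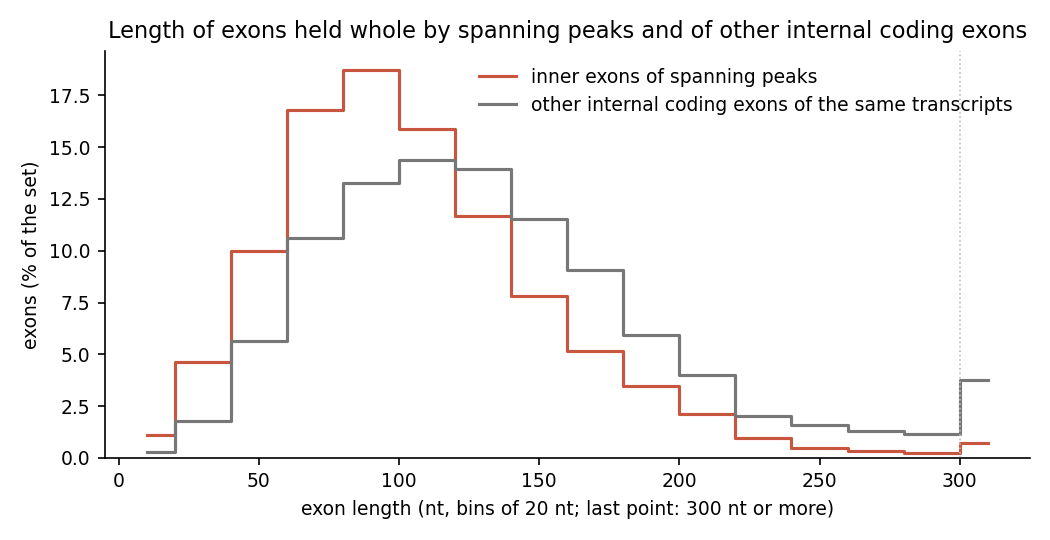
Lengths of the 2856 exons held whole by spanning peaks (red) and of the 13167 other internal coding exons of the same transcripts (grey), in bins of 20 nt on the horizontal axis, as a percentage of each set on the vertical axis; the last step holds all exons of 300 nt or more. The red line is higher below 120 nt and lower above it, with medians of 98 and 125 nt.

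Spanning peaks were found in larger number in aged hearts. The counts were 324, 188 and 212 in young and 533, 533 and 401 in aged hearts, means of 241 ± 72.6 and 489 ± 76.2 (SD, n = 3 each), and the ages did not overlap. Coding peaks as a whole were also more numerous, 2541 to 3790 in young and 4306 to 5173 in aged hearts. As a share of the coding peaks, spanning peaks made up 8.55%, 6.60% and 8.34% in young and 10.3%, 10.5% and 9.31% in aged hearts, again without overlap, and the means differed by 2.20 percentage points. Both differences had p = 0.1 in the two-sided exact permutation test, the smallest that 3 against 3 hearts can give, and 0.242 after adjustment over the 29 comparisons of the ages, so neither passed 0.05. The peaks themselves were also wider in aged hearts: median exonic lengths were 330, 330 and 331 nt in young hearts and 360 nt in every aged heart, and peaks of 5 or more blocks made up 26.6% to 29.0% and 31.4% to 33.8% of the spanning peaks. These ranges did not overlap either (exact permutation test, p = 0.1 for both). Peak lengths lay in coarse steps, such as 300 and 330 nt for Pfdn1, so the equal medians within an age are coarse as well. The part that read depth has in these counts was not tested.

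**Figure D2:**
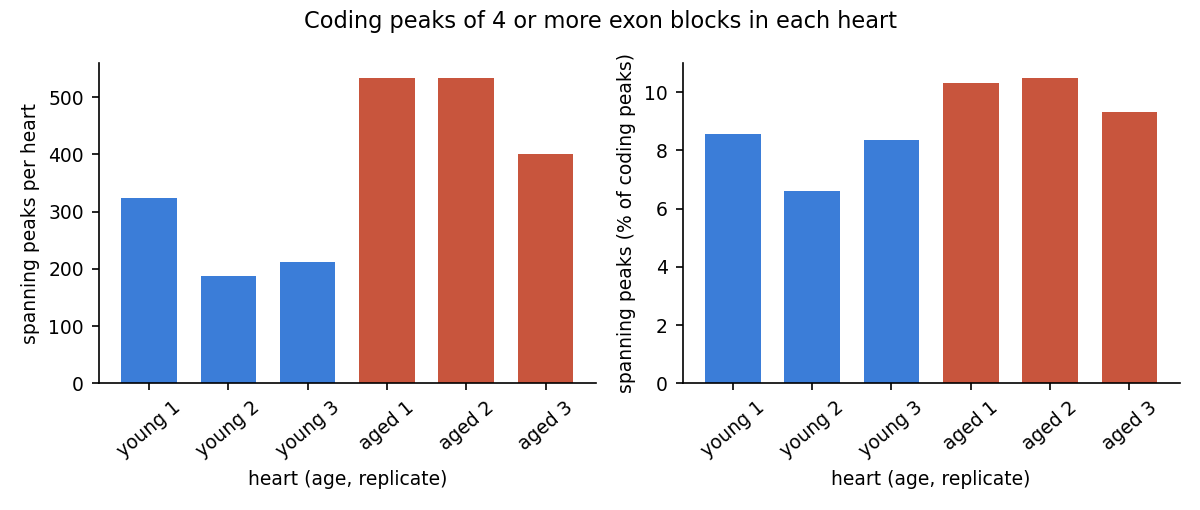
Number of spanning peaks (left) and their share of all coding peaks in percent (right) for each heart on the horizontal axis, young hearts in blue and aged hearts in red. The 3 aged hearts held 401 to 533 spanning peaks and the 3 young hearts 188 to 324, and the shares were 9.31% to 10.5% and 6.60% to 8.55%.

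Regions were formed by joining peaks of any heart that shared exon bases on the same strand. Of 15699 regions, 1044 held at least 1 spanning peak. A peak of any kind was found in all 6 hearts for 283 of them (27.1%), where the share among all regions was 10.6%. Regions with a spanning peak held 4.58 peaks each and all regions 2.66, and a region with more peaks has more chances to hold a spanning one. The spanning form was less regular than the region: only 40 regions had a spanning peak in all 6 hearts, 540 had it in a single heart, and 439 of those 540 had a peak with another number of blocks or position in at least 1 other heart. Where 2 hearts both had a spanning peak at one place, the peaks shared a median of 77.8% of their joint exon bases, and 52.0% of the 2258 such pairs had exactly the same junctions. These values were close within an age (77.9% and 52.6%) and between the ages (77.8% and 51.5%).

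Agreement between hearts was measured as the share of peaks overlapped by a peak of any kind in another heart of the same age. For spanning peaks it was 78.7%, 91.0% and 87.3% in young and 87.2%, 90.1% and 94.8% in aged hearts. For single-exon coding peaks of the same hearts it was 66.5%, 71.8% and 75.8%, and 76.6%, 75.9% and 78.7%. The mean difference was 13.9 percentage points, and spanning peaks were higher in 6 of 6 hearts (exact permutation test by sign flips over the 6 hearts, two-sided, p = 0.03125, the smallest it can give). With both kinds kept between 270 and 450 nt it was -2.69 percentage points (exact permutation test, p = 0.125). In that window the median rank of the p-value of single-exon peaks was 22.4 to 26.9 as a percentile of the list, against 47.6 to 52.3 at all lengths. It was 7.31 with lists of equal length (exact permutation test, p = 0.156). Peaks of the same genes were 11.2 percentage points apart (exact permutation test, p = 0.03125), a comparison added after the data were seen.

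**Figure D3:**
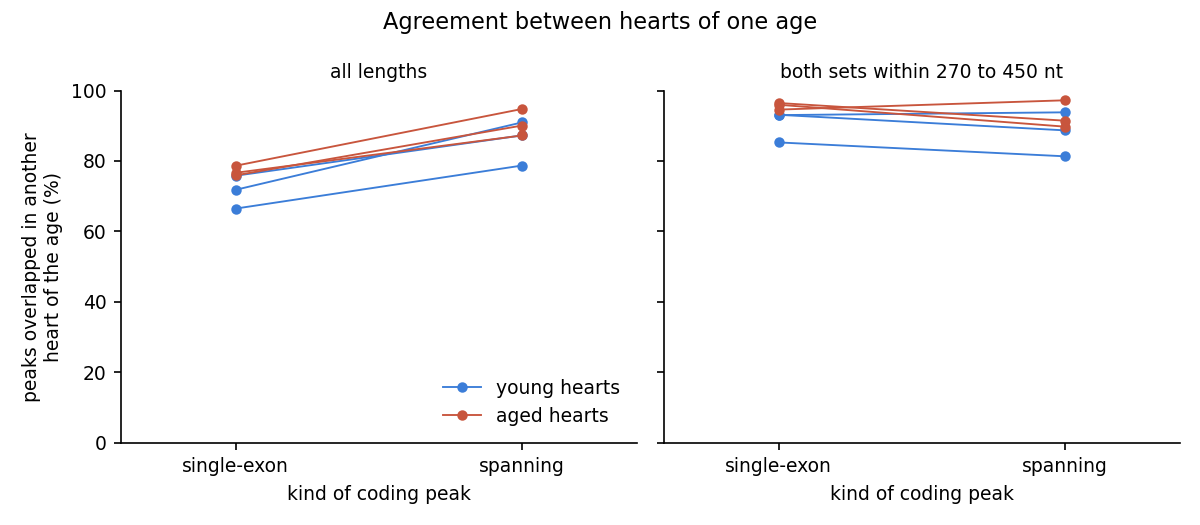
Share of coding peaks in percent that were overlapped by a peak in another heart of the same age (vertical axis), for single-exon and spanning peaks (horizontal axis), with 1 line per heart, young in blue and aged in red. At all lengths (left) every line rises, by 13.9 percentage points on average; with both kinds between 270 and 450 nt (right) the mean difference is -2.69.

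Pairs of hearts were also compared one by one. Spanning peaks of young hearts had no peak at their place in a given aged heart in 6.91% to 21.2% of cases, while those of aged hearts had none in a given young heart in 21.2% to 51.8%. Between hearts of one age the share was 11.7% to 39.8% among young and 12.5% to 25.3% among aged hearts. The shares differed between target hearts of one age as well: spanning peaks of aged hearts had none in young replicate 1 in 21.2% to 27.4% of cases and none in young replicate 2 in 42.4% to 46.7%. The aged lists were the longer ones, and the part of list length in these shares was not tested.

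Of the 10 regions with a spanning peak in all 6 hearts whose weakest peak ranked best, the first lay in Mast2, which encodes a microtubule associated kinase, at chr4:116326100-116330540 on the minus strand. In 5 hearts this peak had the same start, the same end, 4 blocks and 391 nt, and in young replicate 3 it had 5 blocks and 331 nt. A gap of only 26 nt separated 2 of its blocks, and as few as 1 of its junctions were on the chosen transcript, so that its 4 blocks were not all joined as in that transcript. The other genes were Trdn, Pfdn1 (a subunit of the prefoldin chaperone), Nexn (nexilin, an actin binding protein of the Z-disc), Slain2 (a microtubule end protein), Smarcc1 (a subunit of the SWI/SNF remodelling complex), Suds3 (a subunit of the SIN3 deacetylase complex), Scarb2 (a lysosomal membrane protein), Hnrnpdl and Rbm26 (RNA binding proteins). Pfdn1 and Rbm26 had 4 blocks in every heart. Smarcc1 had 6, 5 and 7 blocks in young and 8, 8 and 5 in aged hearts, and all of them ended between positions 110182935 and 110182965 of chromosome 9. For Scarb2 the numbers were 4, 5 and 6 in young and 5, 6 and 4 in aged hearts. The widths overlapped between the ages for both genes.

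Trdn had spanning peaks in 2 places of its 2079 nt CDS in every heart. The first place had 7, 6 and 6 blocks in young and 7, 6 and 6 in aged hearts, with 600 to 810 nt of exon sequence. The second place held the peaks with the most blocks of all lists: 26 in young replicate 1 and in aged replicate 1, both 990 nt long with the same ends at chr10:33233971-33466442, then 12 and 12 in the other young hearts and 13 and 21 in the other aged hearts. Both ages had a peak of 26 blocks, and the numbers overlapped. Young replicates 2 and 3 and aged replicate 3 had a further spanning peak nearby, of 5, 4 and 6 blocks, with weaker p-values (1.3e-05, 0.025 and 4.1e-08) than the main peak.

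**Figure D4:**
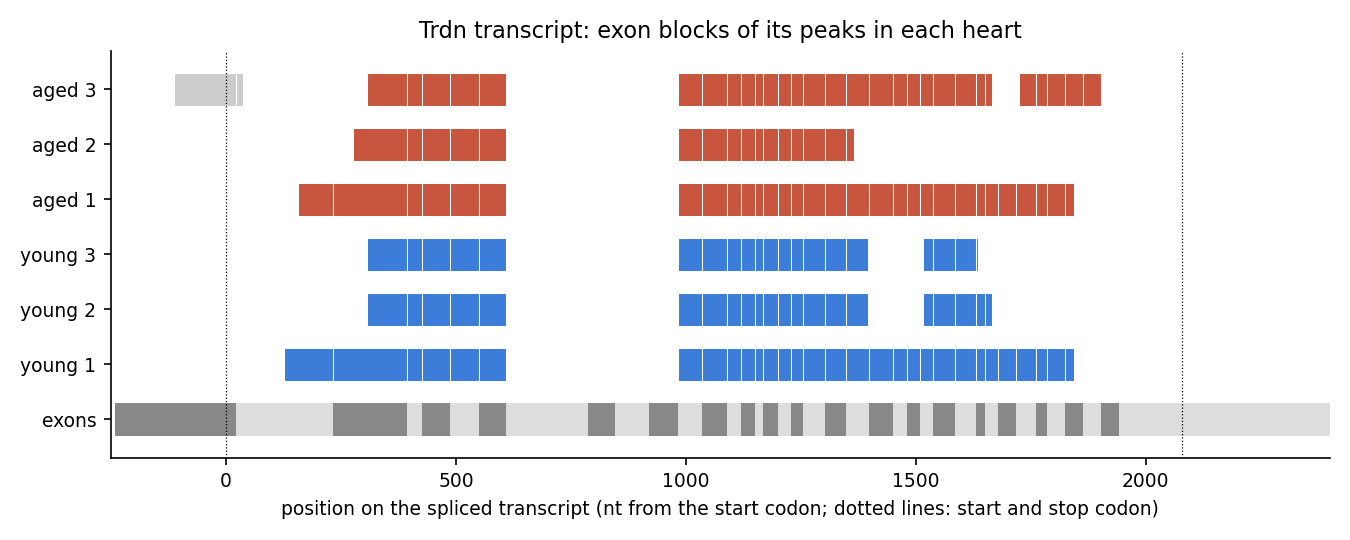
Exon blocks of the Trdn peaks in each heart, placed on the spliced transcript, with the horizontal axis in nt from the start codon and dotted lines at the start and stop codon. Spanning peaks are blue (young) and red (aged), a peak that is no member is light grey, and the lowest row shows the exons in alternating grey; blocks outside this transcript are not drawn. In all 6 hearts the spanning peaks fall in 2 groups, with 1 more peak over the start codon in aged replicate 3 that is not spanning, and the second group runs over the shortest exons, to about the same end in young replicate 1 and aged replicate 1.

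Next in number of blocks came Rock2, Nexn, Rock1 and Ttn. Rock2 and Rock1 encode kinases with a long coiled coil. Rock2 had a peak of 16 blocks and 1827 nt in aged replicate 1, at chr12:16955672-16972710, where the other hearts had several shorter peaks: its spanning peaks numbered 2, 1 and 3 in young and 2, 2 and 4 in aged hearts. Nexn had 10 blocks and 1734 nt in young replicate 3 at chr3:152237759-152252551, and the same stretch was divided into peaks of at most 6 blocks in the other hearts. Rock1 reached 10 blocks in aged replicate 3, 7 in aged replicate 2, 5 in aged replicate 1 and 6 in young replicate 1, and it had no spanning peak in young replicates 2 and 3. The stretch of a gene in peaks of many blocks was thus joined or divided differently from heart to heart.

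Ttn, which encodes titin, the giant spring of the sarcomere, had the most regions with a spanning peak (11) and the most spanning peaks, 7, 4 and 4 in young and 7, 7 and 7 in aged hearts. One of them had 10 blocks and 901 nt in young replicate 3, near nt 29783 of the 105639 nt CDS, and at the same place aged replicate 2 had a peak inside 1 exon. Hspg2 (perlecan, a basement membrane proteoglycan) and Dst (dystonin, a cytoskeletal linker) had 5 regions each, and Ktn1 (kinectin, a coiled coil protein) and Cacna1c (the pore of the cardiac L-type calcium channel) had 4 each. Hspg2 had 2, 1 and 1 spanning peaks in young and 4, 4 and 5 in aged hearts, without overlap. The counts over all genes did not overlap either, with 188 to 324 in young and 401 to 533 in aged hearts. How many of the 867 genes separated in this way is not given, so no age difference is read from single genes. The Hspg2 region at chr4:137542778-137544450 carried a spanning peak of 4 or 5 blocks in 5 of the 6 hearts. Dst had 0, 0 and 2 in young and 1, 1 and 3 in aged hearts, Ktn1 4, 0 and 1 in young and 4, 2 and 3 in aged hearts, and Cacna1c 1, 0 and 1 in young and 1, 3 and 2 in aged hearts, all with overlap. The 20 genes with the most spanning peaks held 10.8% of them, and 396 of the 867 genes had spanning peaks in 1 heart only, while 42 had them in all 6.

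Genes with a spanning peak had more exons than other genes with a coding peak, a median of 17 against 11, and a longer CDS, 2175 against 1803 nt, as the rule favours. A single-exon coding peak was present as well in 299 of the 867. Of all 4719 genes with a coding peak, 18.4% had a spanning one, and the gene lists are given beside this share without a test, since they were chosen with results of these data known. Among sarcomere and Z-disc genes 9 of 23 with a coding peak had a spanning one (39.1%). After Ttn these were led by Nebl (nebulette), with 2, 1 and 2 in young and 2, 0 and 2 in aged hearts, by Tnnt2 (cardiac troponin T), with 1, 0 and 2 in young and 1, 0 and 1 in aged hearts, and by Tpm1 (tropomyosin), with 1, 0 and 1 in both ages. Myh7, the slow myosin heavy chain, had none in young and 3, 1 and 1 in aged hearts. Of genes for calcium handling and ion transport 8 of 17 had a spanning peak (47.1%). After Trdn and Cacna1c came the channel subunit Cacna2d1, with 1, 1 and 0 in young and 3, 1 and 1 in aged hearts, and the sodium-calcium exchanger Slc8a1, with 2 peaks, both in aged hearts.

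Of the 44 collagen chains 9 had a coding peak and 5 a spanning one (55.6%), in all 8 peaks: Col4a2 had 3 in aged hearts, Col6a2 had 1 in each age, Col1a1 and Col5a1 had 1 in an aged heart, and Col4a1 had 1 in a young heart. Collagen genes are built of many short exons. Among the other matrix genes 10 of 25 had a spanning peak (40%), and after Hspg2 they were led by Fbln5 (fibulin), with 3 peaks, and by the laminin chains Lamb1 and Lamc1, with 2 each, all of the laminin peaks in aged hearts. For adhesion and the dystrophin complex the count was 8 of 20 (40%), with Utrn (utrophin) in 4 hearts, Itga5 in 3, and Ctnna1 and Dmd (dystrophin) in 2. For splicing factors and RNA helicases it was 11 of 29 (37.9%), with Rbm25 in all 6 hearts, Ddx5 and Sf3b2 in 4 and Srrm1 in 3. For mitochondrial energy metabolism it was 8 of 29 (27.6%): Cpt2, of fatty acid import, had 1 spanning peak in each aged heart and none in young hearts, and Acadvl, Cpt1b and Decr1 had 1 each. The region of the Cpt2 peaks was not one of those without any peak in young hearts. None of the 5 m6A writers, erasers and readers with a coding peak had a spanning one. Every list that was tried except the last had a higher share than 18.4%. Expression was not measured in these files, and its part in the shares was not tested.

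Spanning peaks held fewer GGAC per length than single-exon peaks. The values for spanning peaks were 3.79, 3.73 and 3.89 GGAC per kb in young and 3.96, 3.96 and 4.13 in aged hearts, and for single-exon peaks 4.98, 4.94 and 5.15, and 4.94, 4.72 and 5.20. The difference was -1.08 per kb on average and negative in 6 of 6 hearts (exact sign-flip permutation test, p = 0.03125). It was -1.02 with both kinds between 270 and 450 nt and -0.92 against single-exon peaks of the same genes. Counted as the share of peaks with at least 1 GGAC, spanning peaks, which are the longer ones, were higher by 8.28 percentage points (exact permutation test, p = 0.03125). Spanning peaks also held less GGAC than the CDS of their own genes outside all peaks, which had 4.36, 4.33 and 4.51 per kb in young and 4.77, 4.51 and 4.55 in aged hearts. This difference was -0.60 per kb in the mean and negative in 6 of 6 hearts (exact permutation test, p = 0.03125), and it was -0.26 for peaks of 5 or more blocks (exact permutation test, p = 0.125). With DRACH in place of GGAC the sign was turned: spanning peaks had 1.67 per kb more than the rest of the CDS (exact permutation test, p = 0.03125). Against single-exon peaks the DRACH difference was -0.61 per kb (exact permutation test, p = 0.03125). Single-exon peaks in turn held more GGAC than the rest of their own CDS, by 0.40 per kb (6 of 6 hearts), and coding peaks of 2 or 3 blocks held less, by -0.40 per kb (6 of 6 hearts; exact permutation test, p = 0.03125 for both).

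Adenine was more frequent in spanning peaks. It made up 33.5%, 31.9% and 34.4% of their bases in young and 31.8%, 30.6% and 32.6% in aged hearts, against 29.8%, 29.0% and 30.6%, and 29.0%, 28.8% and 29.2% in single-exon peaks. The difference of 3.08 percentage points had the same direction in 6 of 6 hearts, as had that of 4.67 percentage points to the rest of the CDS of the same genes, which was 27.8% adenine in the mean over hearts (exact permutation test, p = 0.03125 for both). The 2 adenine comparisons were added after the data were seen. Single-exon peaks exceeded the rest of their own CDS by 2.38 percentage points (6 of 6 hearts). Along the number of blocks, means over 6 hearts went from 4.99 ± 0.17 GGAC per kb at 1 block to 4.40 ± 0.15 at 2, 4.20 ± 0.16 at 3, 3.99 ± 0.23 at 4, 4.05 ± 0.32 at 5 and 3.39 ± 0.30 at 6 or more (SD, n = 6). Adenine went from 29.4% ± 0.71 at 1 block to 29.1% ± 0.68 at 2, 30.1% ± 0.94 at 3, 31.6% ± 1.28 at 4, 32.4% ± 1.36 at 5 and 36.3% ± 2.08 at 6 or more. The step from 4 to 5 blocks was within the spread between hearts for both. DRACH did not fall steadily in this way. It went from 23.9 ± 0.54 per kb at 1 block to 22.2 ± 0.33 at 2, 22.8 ± 0.39 at 4 and 25.2 ± 1.12 at 6 or more. In spanning peaks 95.4% of the GGAC lay within 100 nt of a junction of the chosen transcript, at a median distance of 29 nt, and in single-exon peaks 12.3% did, at a median of 403 nt; exon length fixes most of this, and it was not tested.

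**Figure D5:**
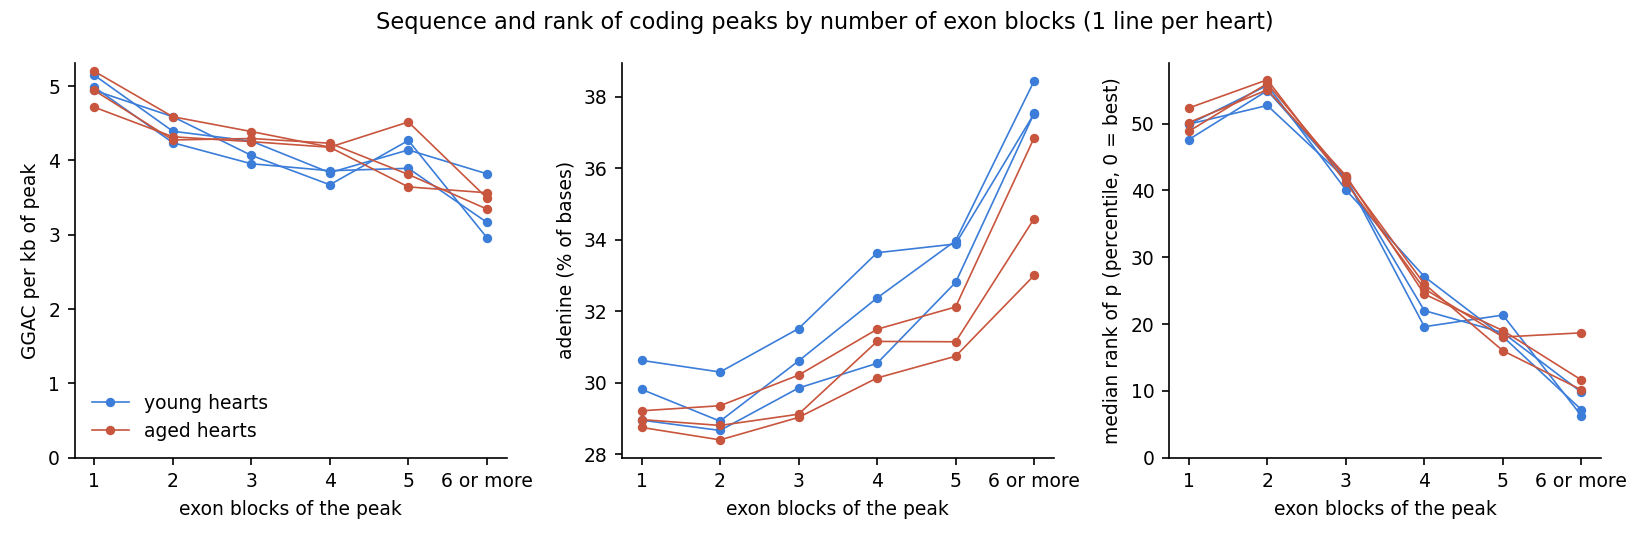
GGAC per kb (left), adenine as a percentage of bases (middle, axis from 28) and the median rank of the p-value inside its list as a percentile with 0 the best (right), against the number of exon blocks of coding peaks, with 1 line per heart, young in blue and aged in red. From 1 block to 6 or more blocks the mean GGAC went from 4.99 to 3.39 per kb, adenine from 29.4% to 36.3% and the rank from 49.8 to 10.6.

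Between the ages, GGAC in spanning peaks did not overlap, with means of 3.80 ± 0.08 per kb in young and 4.02 ± 0.10 in aged hearts (SD, n = 3 each; exact permutation test, p = 0.1, adjusted p = 0.242). With Ttn included, the CDS outside peaks of the same genes moved by about the same amount, 4.40 ± 0.09 and 4.61 ± 0.14. The difference between peak and rest was then -0.60 and -0.59 in young and aged hearts (exact permutation test, p = 1). Without Ttn, the CDS outside peaks had 4.52, 4.61 and 4.77 per kb in young and 4.88, 4.61 and 4.70 in aged hearts, with overlap. Spanning peaks without Ttn had 3.82, 3.75 and 3.91 in young and 4.00, 3.99 and 4.16 in aged hearts, without overlap. The equal shift of peak and rest thus depended on Ttn.

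Spanning peaks ranked high inside their lists. The deposited p-values had a median of 1.3e-22, were listed as 0 for 72 spanning peaks and reached 0.047. With 0 as the best percentile, the median rank was 21.9, 19.3 and 19.3 in young and 20.9, 22.4 and 20.5 in aged hearts, against 47.6 to 49.9 and 48.8 to 52.3 for single-exon peaks. The difference of -29.1 percentiles held in 6 of 6 hearts (exact permutation test, p = 0.03125), and it was -4.74 with both kinds between 270 and 450 nt and -9.08 against single-exon peaks of the same genes (exact permutation test, p = 0.03125 for both).

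Along the CDS, spanning peaks lay earlier than single-exon peaks. Their middle lay on average at 44.9%, 49.4% and 47.0% of the CDS in young and 47.8%, 47.2% and 47.4% in aged hearts, against 51.2%, 52.0% and 51.8%, and 51.9%, 50.5% and 51.9%. The mean difference was -4.24 percentage points, negative in 6 of 6 hearts (exact permutation test, p = 0.03125). Against coding peaks of 2 or 3 blocks the difference was smaller, -1.96 percentage points (exact permutation test, p = 0.03125). Against single-exon peaks in internal exons of 400 nt or more the sign was turned, with 2.58 percentage points (exact permutation test, p = 0.03125). With the CDS cut into 3 equal parts, the first held 34.4% of spanning and 28.9% of single-exon peaks in the mean over hearts, the middle one 37.6% and 37.9%, and the last 28.1% and 33.1%. The first and the last part differed in 6 of 6 hearts (exact permutation test, p = 0.03125 for both), and the middle part did not pass the test (exact permutation test, p = 0.844).

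Separation of the ages was rare among these regions. Presence in every aged heart together with absence from every young heart was found for 40 of the 1044 regions with a spanning peak (3.83%), where the share among all regions was 2.68%. The opposite pattern was found for none, against 0.0446% of all regions. With lists of equal length the counts were 19 and 3 of 886 regions. The count of 40 changed with each heart left out: it was 96 without young replicate 1, 67 without aged replicate 3, 60 without young replicate 2, 50 without aged replicate 1, 49 without young replicate 3 and 36 without aged replicate 2. With 1 heart fewer the rule is looser, since fewer hearts must hold or lack a peak. Such counts therefore tend to rise, and they do not measure the influence of a single heart. In only 4 of the 40 regions was the peak spanning in all 3 aged hearts, in 5 it was so in 2 hearts and in 31 in a single heart. For 27 of the 40 the gene had a peak elsewhere in a young heart.

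Capza2, whose blocks are printed above, led these regions at chr6:17637127-17656323 on the plus strand, with 5 blocks and 300, 420 and 270 nt in the 3 aged hearts. The deposited p-values were 2e-33, 1.3e-75 and 1e-34. Nipsnap2 had 4 blocks in each aged heart, with 270, 270 and 240 nt, and p-values of 3.2e-34, 1.3e-63 and 2.5e-32. Cep85l had 4 blocks in each, with 330, 270 and 300 nt, and p-values of 7.9e-36, 2e-18 and 1.3e-19. In these genes the junctions were crossed alike in all 3 aged hearts. The others among the best 8 were spanning in 1 or 2 aged hearts: App (the amyloid precursor protein), Ppargc1b (a coactivator of mitochondrial biogenesis), Pdk2 (a kinase of pyruvate dehydrogenase), Ppp1r2 (an inhibitor of protein phosphatase 1) and Snx2 (a sorting nexin). App had 4 blocks in aged replicate 1 and 3 blocks in the other 2 aged hearts. Pdk2 had 4 blocks in aged replicate 2 and 3 in the other 2. The count of blocks around the threshold thus varied between hearts of one age at the same place.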

How the data were processed

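Reads of the 6 pairs of libraries were aligned by the authors to GRCm38 with HISAT2 2.1.0, and peaks were called in each pair with exomePeak with a fragment length of 200 and all peaks up to p = 0.05, the false discovery rate not being limited. The deposited lists hold the position, the exon blocks, the gene and the unadjusted p-value of each peak, and no counts or normalization, so p-values were used only within a list. Peaks were placed on GENCODE M21 (7081 of 7088 gene identifiers matched) by the middle of their exon sequence. Regions joined peaks with 1 or more exon bases in common on one strand.

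Hearts were compared by 1 value each. Ages were compared by exact permutation, two-sided, of the 20 ways to assign 3 and 3 hearts, and kinds of peak with two-sided exact sign flips over 6 hearts; p-values were adjusted by Benjamini and Hochberg over the 29 and 17 comparisons made, which gave 0.0332 wherever the sign flips gave 0.03125. The sequence outside peaks is the CDS of the chosen transcript outside every peak of the 6 lists. Genes are named by these rules: the 10 regions spanning in the most hearts with the best weakest rank, the 8 best regions of one age alone, the 5 peaks with the most blocks (1 per region), the 5 genes with the most regions and the 4 members of each gene list with spanning peaks in the most hearts; other list members were named after their values were seen. Printed sequences are those of the named aged-only regions with a spanning peak of at most 300 nt whose blocks all lie in the CDS of the chosen transcript, and the Trdn exons were chosen after the data were seen. The members, gene lists and tests were chosen with earlier results of these data known. In 9 places overlapping genes gave the same exon bases 2 peaks of one list. Placement and joining were tested on simulated data (1800 of 1800 peaks placed, 200 of 200 planted regions of aged hearts recovered). Alternatives were a stricter p-value, equal list lengths, 3 or 5 blocks, other codon windows, junctions of the chosen transcript, other comparison peaks, motifs, overlaps, and each heart left out. The tools were samtools 1.23.1, pysam 0.24.0, matplotlib 3.10.9, pandas 2.3.3 and numpy 2.4.6 under Python 3.11.15.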

Additional observations from a re-analysis of the deposited data

How the results depend on the processing

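Under the alternatives tried, the direction of the counts, the share, the inner exon length, the rank and both adenine comparisons was kept in every setting. Agreement between hearts was 7.31 percentage points (p = 0.156, exact permutation test) with the same number of best peaks per heart and -2.69 with both kinds in the interquartile range of length. GGAC against single-exon peaks changed sign as a share of peaks with GGAC (8.28 percentage points). GGAC against the rest of the CDS was -0.26 per kb at 5 or more blocks and 1.67 for DRACH. The position was 2.58 percentage points against single-exon peaks in long internal exons. The causes were not tested.

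Regions of aged hearts alone numbered 19 with equal lists, 105 at 3 or more and 7 at 5 or more blocks, and 101 with at least 2 hearts against 0; those of young hearts alone numbered 3 with equal lists and 5 with at least 2 hearts against 0. With each heart left out in turn, which loosens the rule, aged-only regions ranged from 36 to 96 and young-only regions from 0 (without 3 of the hearts) to 5 (without young replicate 2). Without 1 heart the exact sign-flip permutation test cannot go below p = 0.0625, and all kept their direction: agreement 12.9 to 15.4 percentage points, GGAC -1.14 to -1.04 and -0.63 to -0.55 per kb, position -4.57 to -3.83, rank -29.3 to -28.8, adenine 2.94 to 3.32 and 4.36 to 4.97 percentage points.

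With the replicate number as a block (replicate block, 3 pairs, smallest possible p = 0.25), the number of spanning peaks differed by 248 (p = 0.25, exact permutation test), the share by 2.20 percentage points (p = 0.25) and the inner exon length by 1.67 nt (p = 0.75). Deviations of same-numbered hearts correlated at -0.002, 0.05 and 0.03, and those of differently numbered hearts at -0.04 to 0.02. Whether same-numbered hearts shared a preparation cannot be told from these values. With a smallest possible p of 0.25 the block could not have changed a call. Depth is unknown, so what depth limits cannot be stated.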

Other observations

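Codons were counted in the reading frame of the chosen transcript, after the sequences of Trdn and Cep85l had been seen. The 4 codons of lysine and glutamate made up 21% ± 2.95 of the codons inside spanning peaks and 14.6% ± 0.57 of those in the CDS of the same genes outside all peaks (SD, n = 6 hearts). The share was higher inside the peaks in 6 of 6 hearts, by 3.36 to 9.86 percentage points (two-sided exact sign-flip permutation test, p = 0.03125, adjusted p = 0.0332). Without Ttn and Trdn, both of which hold long stretches rich in lysine, the mean difference was 6.27 in place of 6.40 percentage points and kept its direction in 6 of 6 hearts (exact permutation test, p = 0.03125). Cep85l was kept in that comparison. The 4 codons are rich in adenine, which was also more frequent in spanning peaks, and the part of adenine in this difference was not tested. Codons of other coding peaks were not counted, so the difference is not shown to be particular to spanning peaks. Adenine also exceeded the rest of their own CDS in single-exon peaks, by 2.38 percentage points, and in peaks of 2 or 3 blocks, by 2.52. Guanine and cytosine together made up 47.1% ± 0.60 of spanning and 50.1% ± 0.41 of single-exon coding peaks (SD, n = 6), with lower values for spanning peaks in 6 of 6 hearts (exact permutation test, p = 0.03125).

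In the middle one of 3 equal parts of the CDS the share of spanning peaks did not overlap between the ages, with 37.0%, 40.4% and 41.5% in young and 35.6%, 35.3% and 35.4% in aged hearts (exact permutation test, p = 0.1, adjusted p = 0.242).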
